A study of Narcissus tazetta subsp. chinensis with 8 samples.

Results

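Myb305 is the working name of c105121.graph_c1, 1 of 81096 assembled genes listed for flowers of the Chinese narcissus, Narcissus tazetta var. chinensis cv Jinzhanyintai. Its best Swiss-Prot match is the snapdragon Myb-related protein 305, its Nr match is a MYB transcription factor of Narcissus tazetta var. chinensis, and a Myb-like DNA-binding domain is listed for it. It was chosen by its identifier, with its lower level on day 7 already known from these data. Its levels are therefore described here with no test, and the same holds for the phenylalanine ammonia-lyase gene c103612.graph_c0 that is set beside it.

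RNA from corolla on day 7 (full bloom), corolla on day 1 (early flowering), petal on day 7 and petal on day 1 was sequenced in 2 libraries per group, 8 in all, as the study of floral scent compared the days within each tissue. All plants were 1 cultivar from a plantation, under natural conditions, and no treatment is named. The labels call the repeats biological but give neither the number of flowers or plants behind a repeat nor how corolla was parted from petal, so p-values measure the spread between these repeats only. Levels are FPKM, that is, sequenced fragments corrected for transcript length and library size, for genes assembled de novo by the authors, so no genome position is given.

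MYB305 is a transcription factor of the R2R3 class, which bind DNA through a pair of MYB repeats. In snapdragon it is made in flowers and switches on genes of the phenylpropanoid pathway, among them phenylalanine ammonia-lyase, the enzyme that turns phenylalanine into cinnamate at the entry of the pathway. Close relatives in petunia, EOBI and EOBII, activate scent genes in petals, MYB21 and MYB24 of Arabidopsis act in petal and stamen growth downstream of jasmonate, and tobacco MYB305 acts in nectaries. Cinnamate feeds benzenoid scent compounds, flavonoids and lignin alike.

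Myb305 was a high-level transcript on day 1 in both tissues and a moderate one on day 7. Its level was 21.13 and 40.75 FPKM in the corolla day 7 libraries, against 441.64 and 377.52 FPKM in the corolla day 1 libraries. In petal it was 22.2 and 28.19 FPKM on day 7, against 475.71 and 441.26 FPKM on day 1. In each tissue every day 7 library lay far below every day 1 library, and no library stood between 40.75 and 377.52 FPKM. In whole tissue, fewer cells with the transcript and less transcript per cell cannot be told apart.

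The group means were 30.9 ± 13.9 FPKM in corolla on day 7 and 410 ± 45.3 FPKM in corolla on day 1 (SD, n = 2 each). In petal they were 25.2 ± 4.24 FPKM on day 7 and 458 ± 24.4 FPKM on day 1 (SD, n = 2 each). The day 7 mean was thus 13.2-fold lower in corolla and 18.2-fold lower in petal. On the log2(FPKM + 1) scale the difference, day 7 minus day 1, was -3.75 ± 0.47 in corolla and -4.14 ± 0.17 in petal (SE from the spread of 2 libraries a group). The authors' deposited table lists log2 fold changes of -3.87 in corolla and -4.25 in petal for it.

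Ordered by mean, petal on day 1 was highest, followed by corolla on day 1, corolla on day 7 and petal on day 7. The tissues did not part on either day. Corolla minus petal was 0.22 ± 0.49 on day 7 and -0.17 ± 0.13 on day 1 on the log2(FPKM + 1) scale, and the ranges of the tissues overlapped on both days. Without corolla day 7 repeat 2 the day 7 difference turned to -0.23. That library had 1.93 times the FPKM of corolla day 7 repeat 1, whereas the corolla day 7 mean was 1.23 times the petal day 7 mean.

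**Figure D1:**
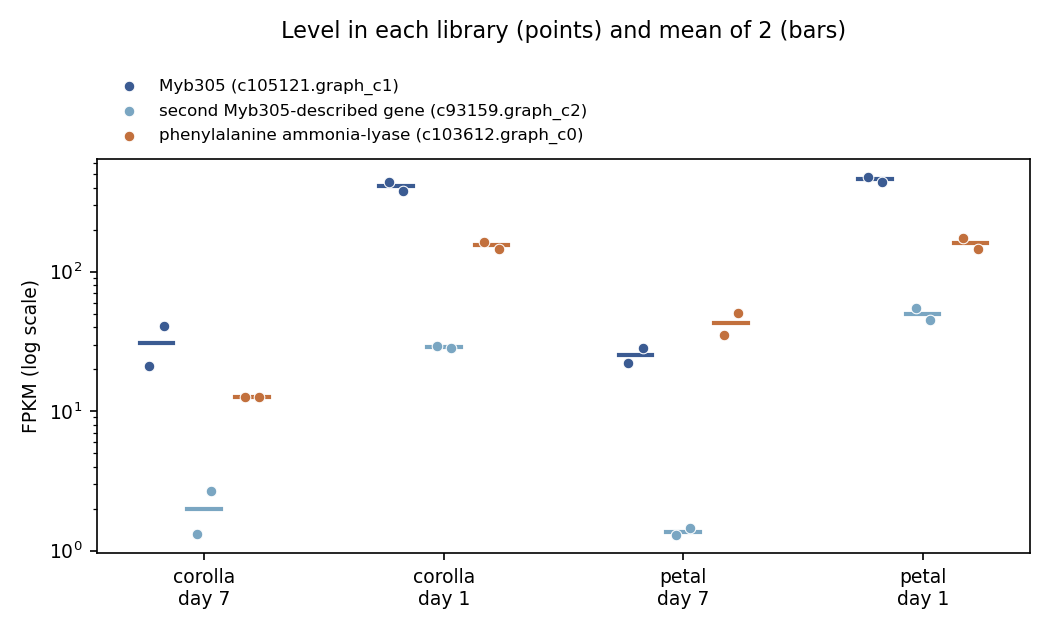
FPKM on a log axis for Myb305 (dark blue), the second gene described as Myb305 (light blue) and the phenylalanine ammonia-lyase gene c103612.graph_c0 (orange) in the 4 tissue and day groups. Points are the 2 libraries of a group and bars their mean; Myb305 stands at 21.13 to 40.75 FPKM in the 4 day 7 libraries and at 377.52 to 475.71 FPKM in the 4 day 1 libraries.

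Among all transcripts of a library, Myb305 ranked from 2826 to 5634 counted from the top in the day 7 libraries, and from 226 to 288 in the day 1 libraries. It lay above 78.5% to 88.8% of the genes detected at 1 FPKM or more in the day 7 libraries, against 98.8% to 99.1% in the day 1 libraries. A difference between days as low as that of Myb305 or lower, itself included, was found for 28 of 22407 corolla genes (0.125%) and for 18 of 23433 petal genes (0.0768%) with at least 1 FPKM in 2 or more libraries of the tissue. These ranks describe the choice of the gene and carry no weight of their own.

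Of 20355 genes with at least 1 FPKM in 2 or more libraries of each tissue, 7 were lowered as far as Myb305 in both, Myb305 among them. The other 6 were seen only once their values were known. They are described as phosphoethanolamine N-methyltransferase 1 (c101855.graph_c1), which makes a precursor of membrane phosphatidylcholine, endoglucanase 19 (c105014.graph_c0), a wall cellulose-cutting enzyme class, alkane hydroxylase MAH1 (c7902.graph_c0), which oxidises wax alkanes, non-specific lipid-transfer protein 2 (c86074.graph_c0), a GDSL esterase/lipase (c99501.graph_c0) and a putative cell wall protein (c101821.graph_c0).

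Read counts were deposited for the genes the authors called, and Myb305 is one of them in both tissues. Its counts were 520 and 801 reads in corolla on day 7, against 13379 and 9377 reads in corolla on day 1. In petal they were 641 and 520 reads on day 7, against 14093 and 11063 reads on day 1. Exact Poisson 95% intervals reached at most 8.98% above a day 7 count and at most 2.04% above a day 1 count, which covers counting error only. The gap between the corolla day 7 repeats was therefore much wider than counting error, with intervals of 476 to 567 and 746 to 858 reads at relative depths of 0.964 and 0.714.

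The ratio of a gene's count to its FPKM, set against the same ratio over 248 genes with at least 100 reads in each library, gives the transcript length the authors' counting assumed, relative to petal day 1 repeat 1. For Myb305 this relative length was 0.861 and 0.93 in corolla on day 7 against 1.05 in both corolla day 1 libraries. In petal it was 0.989 and 0.95 on day 7 against 1.0 and 1.04 on day 1. The phenylalanine ammonia-lyase gene stayed at 1.0 in all 8 libraries. Counts divided by depth put the difference between days at -4.03 in corolla and -4.27 in petal on the log2 scale, a little larger than the FPKM gave, an alternative that was added after the data were seen.

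A second assembled gene, c93159.graph_c2, carries the same Swiss-Prot and Nr descriptions as Myb305, with no Myb domain listed, and followed the same course at a lower level. It measured 1.32 and 2.68 FPKM in corolla on day 7, against 29.22 and 28.47 FPKM in corolla on day 1. In petal it measured 1.29 and 1.45 FPKM on day 7, against 54.65 and 44.96 FPKM on day 1. As for Myb305, every day 7 library lay below every day 1 library of its tissue, and corolla day 7 repeat 2 was the highest of the 4 day 7 libraries. Unlike Myb305, the gene was higher in both petal day 1 libraries than in both corolla day 1 libraries.

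The second gene fell in corolla (log2 fold change -3.35 ± 0.26 SE, limma adjusted p = 0.00292) and in petal (-4.42 ± 0.19 SE, limma adjusted p = 0.00383). The day effects differed by 1.06 ± 0.33 between corolla and petal, which did not pass (limma adjusted p = 0.248). The gene was matched by description among genes the authors had called in both tissues, so its fall is not independent evidence. Its day 7 levels rest on 15 to 30 reads a library. The corolla call did not pass without corolla day 1 repeat 1 or repeat 2, nor the petal call without petal day 7 repeat 1 or either petal day 1 library. Each of those fits leaves a lone library in a group, and the calls over all genes were lost in it as well. Leaving out either corolla day 7 library or petal day 7 repeat 2 also leaves a lone library, yet the call remained.

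The FPKM of Myb305 was 16.0 and 15.2 times that of the second gene in corolla on day 7, against 15.1 and 13.3 times in corolla on day 1. It was 17.2 and 19.4 times in petal on day 7, against 8.7 and 9.81 times in petal on day 1, so the petal day 1 libraries held the most of the second gene relative to Myb305. No sequence of either gene was available here, and reads of closely similar genes may be split between them by the authors' counting. Each gene is 1 graph of its own assembly component: c105121 has no other gene in either table, and c93159 has c93159.graph_c0, at 0.12 to 0.62 FPKM in the 8 libraries.

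The phenylalanine ammonia-lyase gene c103612.graph_c0, matched to phenylalanine ammonia-lyase 1, was also low on day 7, with a larger step in corolla than in petal. It measured 12.7 and 12.58 FPKM in corolla on day 7, against 162.3 and 145.08 FPKM in corolla on day 1. In petal it measured 34.84 and 50.37 FPKM on day 7, against 173.99 and 144.48 FPKM on day 1. The tissues were alike on day 1, where their ranges overlapped, and apart on day 7, where both petal libraries lay above both corolla libraries.

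The day 7 mean of this enzyme gene was 12.2-fold lower than the day 1 mean in corolla and 3.74-fold lower in petal, beside 13.2-fold and 18.2-fold for Myb305. On the log2(FPKM + 1) scale its difference, day 7 minus day 1, was -3.50 ± 0.08 in corolla and -1.89 ± 0.29 in petal, beside -3.75 ± 0.47 and -4.14 ± 0.17 for Myb305. In corolla the pair therefore differed by less than the spread of Myb305 between repeats, and in petal Myb305 was lowered much further. These are descriptions of genes named with the pattern in view, and the difference was not tested.

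A ratio within a library needs no scaling between libraries. Myb305 stood at 1.66 and 3.24 times the FPKM of the enzyme gene in corolla on day 7, against 2.72 and 2.60 times in corolla on day 1. In petal it stood at 0.637 and 0.560 times on day 7, against 2.73 and 3.05 times on day 1. The petal day 7 libraries were thus the only ones of the 8 in which the enzyme gene outranked Myb305. Ratios of read counts gave the same picture, at 0.639 and 0.538 in petal on day 7 and from 1.45 to 3.23 in the other 6 libraries.

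**Figure D2:**
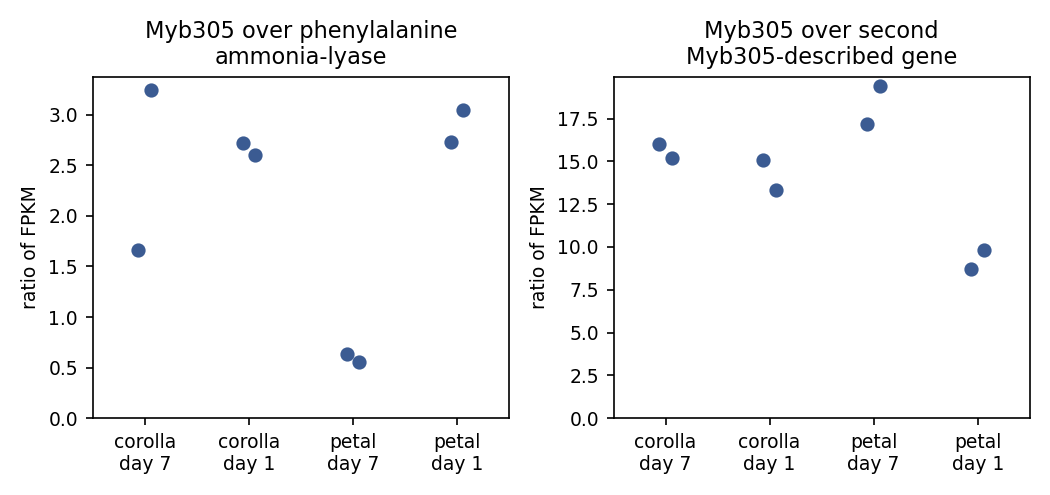
Ratio of the Myb305 FPKM to that of the phenylalanine ammonia-lyase gene c103612.graph_c0 (left) and to that of the second gene described as Myb305 (right), with 1 point per library and the 4 tissue and day groups on the x axis. The left ratio is 0.637 and 0.560 in petal on day 7 and at least 1.66 in every other library, and the right ratio is lowest in petal on day 1, at 8.70 and 9.81.

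The other genes of the pathway were taken from 9 lists matched by description, which gave 65 genes besides Myb305 and c103612.graph_c0. Only genes that the authors called in at least 1 tissue carry descriptions, so high counts of passing members follow from that choice and are no evidence about the lists. In corolla 58 of 64 tested members passed limma's FDR of 0.05, with 15 higher and 43 lower on day 7 and a median log2 change of -1.36. Over all corolla genes tested 21.5% passed, 6.52% higher and 15.0% lower, with a median of -0.06. In petal 41 of 58 tested members passed, 12 higher and 29 lower, with a median of -1.13, against 10.2% of all petal genes, 4.12% higher and 6.05% lower, with a median of -0.05.

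Members that the authors had called in the other tissue alone escape part of that choice. In corolla, 0 of 12 such tested members were higher and 7 lower (median -0.80), and in petal 3 of 24 were higher and 6 lower (median -0.50). With no filter on low FPKM, 0 of 13 were higher and 4 lower in corolla, and 0 of 31 passed limma's test in petal, where 17 had an unadjusted p under 0.05. The corolla calls over the 9 lists were lost without corolla day 1 repeat 1 or corolla day 1 repeat 2. The petal calls were lost without petal day 7 repeat 1, petal day 1 repeat 1 or petal day 1 repeat 2. Each of those fits leaves a lone library in a group, and the calls over all genes were lost in it as well. Leaving out either corolla day 7 library or petal day 7 repeat 2 also leaves a lone library, yet calls remained. With no filter on low FPKM, 19 members of the 9 lists passed in petal.

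At the entry of the pathway, both other phenylalanine ammonia-lyase genes also fell in both tissues, while most genes described as 4-coumarate-CoA ligase or ligase-like rose. Besides c103612.graph_c0, 3 of 7 entry genes were higher and 3 lower in corolla, and 4 higher and 3 lower in petal. All 7 were called by the authors in petal, so the petal count follows from that choice. Of the 2 known through petal calls alone, 0 were higher and 1 lower in corolla. The shares over all genes tested were 6.52% higher and 15.0% lower in corolla, and 4.12% higher and 6.05% lower in petal. The ammonia-lyase gene c78531.graph_c0 measured 13.33 and 14.59 FPKM in corolla on day 7, against 37.37 and 42.85 FPKM in corolla on day 1 (log2 fold change -1.46 ± 0.12 SE, limma adjusted p = 0.00346). In petal it measured 6.74 and 11.43 FPKM on day 7, against 58.16 and 41.58 FPKM on day 1 (-2.36 ± 0.29 SE, limma adjusted p = 0.0146). Its day 7 libraries lay below its day 1 libraries in both tissues, as those of Myb305 did. The petal call was lost with no filter on low FPKM (limma adjusted p = 0.0515; 0.001 to 0.284 over the 11 alternatives).

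Of the 7 entry genes tested, the ammonia-lyase gene c93919.graph_c0 was the 1 whose day effect passed the test of a difference between the tissues. It measured 20.02 and 15.99 FPKM in corolla on day 7, against 26.63 and 32.27 FPKM in corolla on day 1 (log2 fold change -0.68 ± 0.16 SE, limma adjusted p = 0.0447). In petal it measured 1.55 and 2.14 FPKM on day 7, against 23.98 and 15.97 FPKM on day 1 (-2.86 ± 0.27 SE, limma adjusted p = 0.00965). The day effect in corolla minus that in petal was 2.18 ± 0.32 (limma adjusted p = 0.0321), where 0.654% of all 26460 genes tested passed, 0.261% higher and 0.393% lower. Over the 9 lists 8 of 65 members passed that test, 4 higher and 4 lower. In this gene the petal was the tissue with the deeper fall, whereas c103612.graph_c0 stood 12.2-fold lower in corolla and 3.74-fold lower in petal. The corolla call passed in 4 of 11 alternatives (adjusted p from 0.0313 to 0.237) and the difference between tissues in 6 of 14 (0.021 to 0.205).

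Ligases of this group attach coenzyme A to hydroxycinnamic acids or, in the ligase-like proteins, often to other acids. Ligase-like 6 (c106335.graph_c1) rose to 262 ± 35.1 FPKM in corolla on day 7, against 45.8 ± 7.12 FPKM on day 1 (log2 fold change 2.49 ± 0.15 SE, limma adjusted p = 0.00186), and it rose in petal as well (2.02 ± 0.23 SE, limma adjusted p = 0.0126). Ligase-like 3 (c109999.graph_c1) rose to 91.0 ± 8.77 FPKM, against 19.0 ± 4.26 FPKM, in corolla, and to 41.6 ± 14.0 FPKM, against 11.2 ± 2.49 FPKM, in petal. Ligase-like 2 (c106335.graph_c0) rose in both tissues too, by 1.96 ± 0.15 in corolla and 1.63 ± 0.27 in petal on the log2 scale. Probable ligase 2 (c106120.graph_c0) took the course of Myb305 and fell, with 3.08 ± 2.20 FPKM in corolla on day 7 against 23.7 ± 3.56 FPKM on day 1, and 3.33 ± 2.09 against 16.8 ± 4.36 FPKM in petal. Ligase 1 (c100198.graph_c0) rose in petal, to 9.65 ± 3.37 FPKM against 2.19 ± 0.283 FPKM, and had 6.31 ± 0.382 against 4.69 ± 0.113 FPKM in corolla (limma adjusted p = 0.205). With no filter on low FPKM the petal calls of ligase-like 2, ligase-like 3, probable ligase 2 and ligase 1 were lost (limma adjusted p = 0.0876, 0.0833, 0.115 and 0.0921), and that of probable ligase 2 also with a pseudocount of 0.1 (0.0522).

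Upstream, genes that supply phenylalanine moved both ways. In corolla 4 of 8 were higher and 4 lower, and in petal 2 higher and 1 lower. All 8 were called by the authors in corolla, so the corolla count follows from that choice. Of the 7 known through corolla calls alone, 1 was higher and 1 lower in petal. Among all genes tested, 6.52% were higher and 15.0% lower in corolla, and 4.12% higher and 6.05% lower in petal. Arogenate dehydratase/prephenate dehydratase 1 (c106196.graph_c0), which makes phenylalanine from arogenate, rose in corolla (344.12 and 357.76 FPKM on day 7, against 47.52 and 52.22 FPKM on day 1) and in petal (208.88 and 250.12 FPKM on day 7, against 23.21 and 26.07 FPKM on day 1). Its libraries were high where those of Myb305 were low, without overlap in either tissue. Arogenate dehydrogenase 2 (c55524.graph_c0), of the tyrosine branch, rose in corolla to 143 ± 38.4 FPKM, against 21.8 ± 8.84 FPKM. Arogenate dehydratase/prephenate dehydratase 6 (c98687.graph_c0) went the other way and fell in corolla to 0.640 ± 0.170 FPKM, against 8.43 ± 1.99 FPKM. The list also holds isochorismate synthase 2 (c106956.graph_c2), which serves salicylate and phylloquinone synthesis rather than phenylalanine, and a pair of inactive shikimate kinase-like genes, all 3 of them lower in corolla.

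The list of benzenoid scent steps matched 1 gene, benzyl alcohol O-benzoyltransferase (c95879.graph_c2), which forms benzyl benzoate. It measured 183.16 and 162.95 FPKM in corolla on day 7, against 57.02 and 61.78 FPKM in corolla on day 1, and rose (log2 fold change 1.53 ± 0.10 SE, limma adjusted p = 0.00202). Petal libraries held 1598.5 and 1961.08 FPKM on day 7, against 1081.69 and 1120.74 FPKM on day 1, a change that did not pass (0.68 ± 0.24 SE, limma adjusted p = 0.134), though it passed in the fit of all 8 libraries (0.0154). Within corolla this gene was higher on day 7, when Myb305 was low, but every petal library, those of day 1 with the highest Myb305 mean included, held more of it than any corolla library.

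In the branches that lead on from cinnamate to flavonoids and lignin, most corolla members were lower on day 7. Most of both lists carry a description through the authors' corolla calls, so the corolla counts largely follow from that choice. In petal lower members also outnumbered higher ones, and more members than in corolla did not pass the test. In the flavonoid list 4 of 15 were higher and 10 lower in corolla, and 1 higher and 8 lower of 14 in petal. Anthocyanin 5-aromatic acyltransferase (c74796.graph_c0) fell in corolla to 0.395 ± 0.00707 FPKM, against 9.80 ± 0.559 FPKM. An isoflavone reductase homolog (c86823.graph_c0) fell in both tissues, with log2 changes of -2.83 ± 0.25 in corolla and -2.85 ± 0.27 in petal, while an isoflavone reductase-like gene (c78614.graph_c0) rose in corolla to 27.07 and 40.83 FPKM on day 7, against 3.57 and 4.88 FPKM on day 1. In the lignin branch 1 of 10 was higher and 8 lower in corolla, and 2 higher, 5 lower and 3 not past the test in petal. Of the petal members described through corolla calls alone, 1 of 7 flavonoid genes was higher and 3 lower, and 1 of 5 lignin genes was higher and 1 lower. Of the corolla members described through petal calls alone, 0 of 2 flavonoid genes were higher and 1 lower. The same counts held for the 2 such lignin genes. The shares over all genes tested were 6.52% higher and 15.0% lower in corolla, and 4.12% higher and 6.05% lower in petal. A cinnamoyl-CoA reductase 1-like gene (c93905.graph_c0) fell in corolla to 33.6 ± 5.56 FPKM, against 252 ± 35.3 FPKM, and in petal to 73.2 ± 16.1 FPKM, against 291 ± 48.7 FPKM. Cinnamyl alcohol dehydrogenase (c103687.graph_c0) and cinnamoyl-CoA reductase 1 (c96173.graph_c0), which make monolignols, fell in corolla, with log2 changes of -2.65 ± 0.10 and -1.74 ± 0.09.

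**Figure D3:**
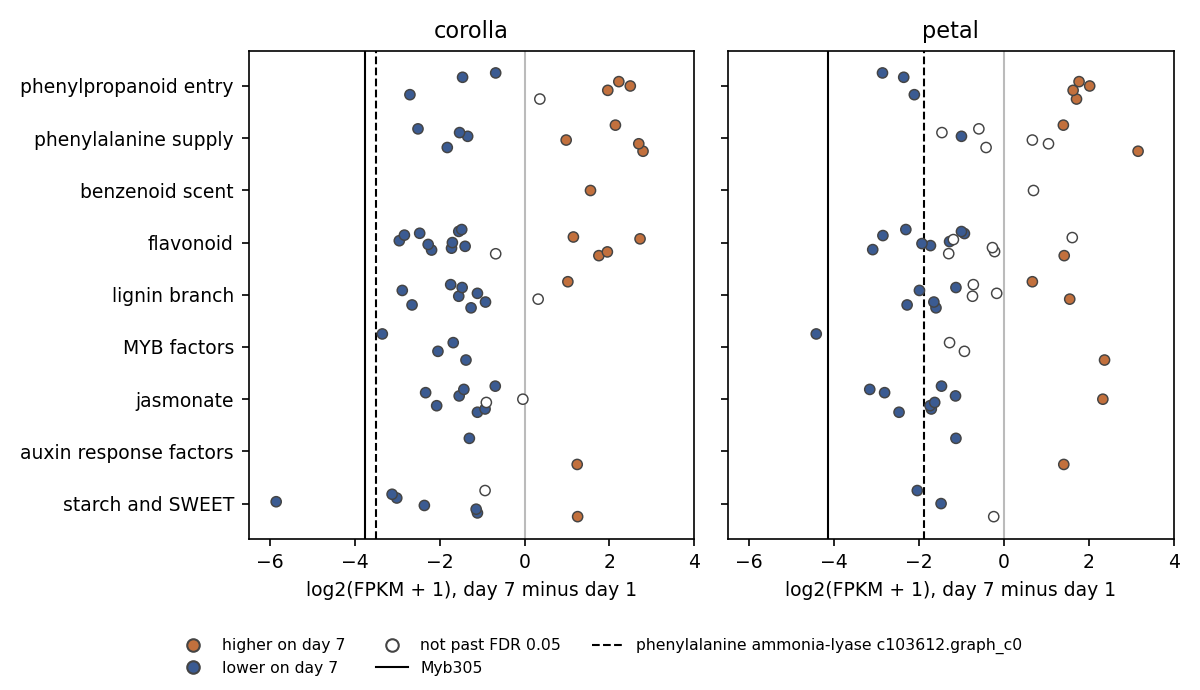
Difference of log2(FPKM + 1), day 7 minus day 1, for each tested member of the 9 lists (rows) in corolla (left) and petal (right). Orange points were higher and blue points lower at limma's FDR of 0.05, white points did not pass, the solid line is Myb305 (-3.75 and -4.14) and the dashed line the phenylalanine ammonia-lyase gene c103612.graph_c0 (-3.50 and -1.89); the blue MYB point nearest to the solid line is the second gene described as Myb305.

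Among the other MYB factors, 4 of 4 tested genes were lower in corolla, and in petal 1 was higher and 1 lower of 4. All 4 tested in corolla were called there by the authors, so the corolla count follows from that choice. Of the 2 tested in petal and known through corolla calls alone, 0 were higher and 0 lower. Among all genes tested, 6.52% were higher and 15.0% lower in corolla, and 4.12% higher and 6.05% lower in petal. All 5 genes of the list had a lower FPKM than Myb305 in every library. MYB12 (c109211.graph_c0), which in Arabidopsis activates flavonol synthesis, fell in corolla to 2.85 ± 0.311 FPKM, against 9.03 ± 1.11 FPKM (log2 fold change -1.38 ± 0.19 SE, limma adjusted p = 0.0116). MYB51 (c73008.graph_c0), a glucosinolate regulator in Arabidopsis, fell in corolla to 0.245 ± 0.0495 FPKM, against 4.17 ± 0.891 FPKM, and it was listed at 0 in both petal libraries of day 7, against 0.115 ± 0.0636 FPKM in petal on day 1. MYB44 (c84282.graph_c0), a stress-responsive factor in Arabidopsis, fell in corolla to 0.120 ± 0.170 FPKM, against 2.58 ± 0.615 FPKM, though the call was lost with no filter on low FPKM (limma adjusted p = 0.0886). The gene described as Myb-related protein 306 (c103387.graph_c2) rose in petal to 7.17 ± 1.21 FPKM, against 0.580 ± 0.170 FPKM, and was too low in corolla to be tested.

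Jasmonate acts upstream of the related MYB21 and MYB24 in Arabidopsis, and most genes of the list of its synthesis and signalling were lower on day 7. In corolla 0 of 9 were higher and 7 lower, and in petal 1 was higher and 8 lower. All 9 were called by the authors in petal, so the petal count follows from that choice. Over all genes tested, 6.52% were higher and 15.0% lower in corolla, and 4.12% higher and 6.05% lower in petal. The gene higher in petal, the 9S-lipoxygenase gene c107209.graph_c2, measured 241 ± 36.6 FPKM on day 7 against 51.7 ± 31.0 FPKM on day 1. A 13S-lipoxygenase (c109126.graph_c0), of the class that opens jasmonate synthesis, fell to 17.3 ± 5.83 FPKM, against 89.1 ± 11.0 FPKM, in corolla, and to 7.63 ± 0.460 FPKM, against 59.5 ± 1.17 FPKM, in petal. Allene oxide cyclase 4 (c104874.graph_c0), a later step, fell to 3.04 ± 0.615 FPKM, against 16.0 ± 1.49 FPKM, in corolla, and to 8.30 ± 3.53 FPKM, against 28.9 ± 1.18 FPKM, in petal. The 9S-lipoxygenase gene c107560.graph_c0, whose products are not jasmonates, fell in corolla with a log2 change of -1.54 ± 0.17. The list also holds the signalling genes TIFY 5A (c86683.graph_c0), TIFY 10A (c106777.graph_c1) and TIFY 10B (c95648.graph_c0). All of these were lower in petal (limma adjusted p = 0.00896, 0.0453 and 0.0102). In corolla TIFY 5A and TIFY 10B were lower (0.0248 and 0.0454) and TIFY 10A did not pass (0.0561). With no filter on low FPKM the petal call of TIFY 10A (0.156) and both corolla calls (0.128 and 0.125) were lost. Of the 5 corolla members known through petal calls alone, 0 were higher and 3 lower in limma's test, but 1 was lower with a pseudocount of 0.1, with median-of-ratios or TMM scaling or with no filter on low FPKM. The petal calls of allene oxide cyclase 4 and of the 9S-lipoxygenase genes c107560.graph_c0 and c107209.graph_c2 were lost with no filter (limma adjusted p = 0.0878, 0.0668 and 0.113).

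The other lists were small. Of 2 auxin response factors, factor 9 (c106588.graph_c0) rose to 44.5 ± 5.71 FPKM, against 18.1 ± 0.0354 FPKM, and factor 18 (c93475.graph_c1) fell to 8.04 ± 1.10 FPKM, against 21.2 ± 1.80 FPKM, in corolla, and both moved the same way in petal, though the petal call of factor 18 was lost with no filter on low FPKM (limma adjusted p = 0.0888). Among starch and nectar sugar genes 1 of 8 was higher and 6 lower in corolla, and 0 higher and 2 lower of 3 tested in petal. All but 1 of the 8 were called by the authors in corolla, so the corolla count mostly follows from that choice. Against this, 6.52% of all genes tested were higher and 15.0% lower in corolla, and 4.12% higher and 6.05% lower in petal. The sugar transporters SWEET4 (c54457.graph_c0), SWEET13 (c96588.graph_c0) and SWEET14 (c94280.graph_c0) led the corolla falls. SWEET13 measured 2.21 ± 0.0919 FPKM in corolla on day 7 against 27.0 ± 2.90 FPKM on day 1, and at most 0.31 FPKM in any petal library, so these transporters shared the corolla course of Myb305 but not its level in petal.

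The genes whose course was most like that of Myb305 were sought among the 8668 genes that averaged 10 FPKM or more in each tissue. Likeness was the root-mean-square difference of log2(FPKM + 1) over the 8 libraries after each gene was centred on its own mean. A low value therefore needs a step between days of similar size, but not the same order of libraries. The second gene described as Myb305 was nearest of all, at 0.24, where the median gene stood at 1.95. By mean FPKM it was lowered 14.4-fold in corolla and 36.4-fold in petal, beside 13.2-fold and 18.2-fold for Myb305. It lay at 1.29 to 2.68 FPKM on day 7, where the pseudocount of 1 narrows such a gap. It was followed by a pair of omega-6 fatty acid desaturase genes (c96035.graph_c0 and c98940.graph_c0, both at 0.44), which make linoleate, by expansin-A1 (c93401.graph_c0, 0.46), a wall-loosening protein, and by phosphoethanolamine N-methyltransferase 1 (c101855.graph_c1, 0.50). Expansin-A1 averaged 0.185 FPKM in corolla on day 7 against 19.9 FPKM on day 1, and 1.12 against 20.4 FPKM in petal. The pseudocount thus narrows its fall too. A GDSL esterase/lipase (c99501.graph_c0, 0.50), secoisolariciresinol dehydrogenase (c83079.graph_c0, 0.53), a lignan enzyme, and the esterase/lipase APG (c101094.graph_c0, 0.57) completed the nearest 8 described genes.

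The nearest of these outside the MYB family, desaturase c96035.graph_c0, measured 21.8 and 17.19 FPKM in corolla on day 7 against 361.52 and 296.03 FPKM on day 1, and 15.87 and 20.12 FPKM in petal on day 7 against 308.36 and 172.92 FPKM on day 1. Its group means lay below those of Myb305, most of all in petal on day 1, at 241 ± 95.8 against 458 ± 24.4 FPKM (SD, n = 2 each). On day 1 its mean was higher in corolla, at 329 FPKM, than in petal, unlike that of Myb305. The nearest genes with no description were c89946.graph_c0 (0.77), c89408.graph_c0 (0.84) and c112181.graph_c0 (0.84). The phenylalanine ammonia-lyase gene c103612.graph_c0, at 0.94, came 40th of the 8668, or 36th of the 940 described genes, but 834th of the 8668 by Pearson correlation. The libraries form 4 groups, so likeness mostly reflects the size of the step between days in each tissue. When genes were ranked by Pearson correlation, which ignores the size of the step, only 2 of the 8 described genes stayed among the nearest 8. The second gene described as Myb305 then came 5th and the esterase/lipase c99501.graph_c0 7th.

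**Figure D4:**
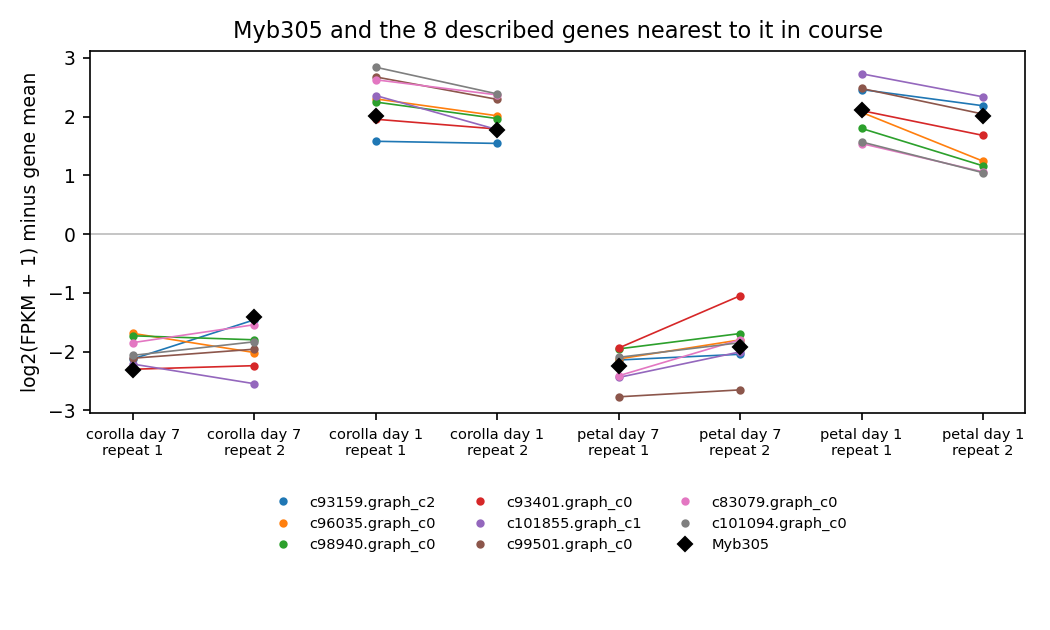
log2(FPKM + 1) minus each gene's own mean for Myb305 (black diamonds) and the 8 described genes nearest to it (coloured points) in the 8 libraries, with lines joining the 2 repeats of a group. All 9 genes lie above their mean in the 4 day 1 libraries and below it in the 4 day 7 libraries, and Myb305 is the highest of them in corolla day 7 repeat 2.

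Other transcripts moved with the same groups. The summed level of 33 photosynthesis genes, markers of green tissue, was 1290 to 1530 FPKM in corolla on day 7 against 5560 to 5780 FPKM on day 1, and 596 to 627 FPKM in petal on day 7 against 1570 to 1580 FPKM on day 1. In corolla 33 of 33 were lower and in petal 14 of 26 tested. All 33 were called by the authors in corolla, so the corolla count follows from that choice. Of the 16 members tested in petal and known through corolla calls alone, 0 were higher and 5 lower. Over all genes tested, 6.52% were higher and 15.0% lower in corolla, and 4.12% higher and 6.05% lower in petal. The 4 matched MADS-box genes, which hold the petal-identity relatives MADS2 (c106110.graph_c1) and MADS16 (c95429.graph_c0), summed to 224 to 231 FPKM in corolla on day 7 against 493 to 529 FPKM on day 1, and to 85.4 to 107 FPKM in petal on day 7 against 283 to 313 FPKM on day 1. Of the 4, 2 were higher and 2 lower in corolla, and 1 higher and 2 lower in petal. Both identity genes were above 0 in all 8 libraries. The 5 pollen and anther markers summed to 136 to 229 FPKM in corolla on day 7 against 73.2 to 131 FPKM on day 1, and to 47.6 to 53.7 FPKM in petal on day 7 against 84.7 to 106 FPKM on day 1, with none of the 5 at 0 in any library. Of these markers 0 were higher and 2 lower of 4 tested in corolla, and 2 higher and 3 lower of 5 in petal. The part of these lists in the level of Myb305 was not tested.

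Depth relative to petal day 1 repeat 1 ranged from 0.655 in petal day 7 repeat 2 to 0.985 in petal day 7 repeat 1, and 23336 to 29601 genes were detected at 1 FPKM or more per library. The most genes were detected in petal day 7 repeat 2, the shallowest library. Leaving out any 1 library kept the Myb305 difference between days from -4.21 to -3.29 in corolla and from -4.31 to -3.98 in petal.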

How the data were processed

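The authors deposited, per tissue, FPKM of all assembled genes (64490 in corolla, 67182 in petal) and, for the genes they called, read counts, an adjusted p-value (FDR) and a log2 fold change, per the file headers. Called genes numbered 1707 and 1053, of which 1517 and 880 have descriptions. Bowtie and RSEM are named in the submitters' processing notes. How the authors made their calls, and with which tool, was not given in the sources used here.

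Because counts cover called genes only, log2(FPKM + 1) values were tested instead, two-sided, by limma 3.58.1 with a variance trend (R 4.3.3). The Benjamini-Hochberg FDR of 0.05 ran over every gene that reached 1 FPKM in 2 libraries or more, within each tissue, and for a tissue by day term over 8 libraries (genes in both tables). The pseudocount of 1 understates changes of low genes. The fits were tested on simulated data. edgeR 4.0.16 served for TMM scaling only. Plots came from matplotlib 3.10.9 and tables from numpy 2.4.6, scipy 1.17.1 and pandas 2.3.3 under Python 3.11.15. FPKM are scaled per library, and corolla and petal levels are set side by side on that scale.

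The gene, the lists and the tests were chosen with earlier results of these data known. Named were Myb305, c103612.graph_c0, every phenylpropanoid entry and MYB gene, up to 3 of each other list with the largest corolla change among those passing, and the genes nearest in course. Replicates, pseudocount, filter, scaling, repeat block and a joint fit were varied.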

Additional observations from a re-analysis of the deposited data

Results flagged for a closer look

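Each of the following list members had a day effect that differed between corolla and petal in limma's tissue by day test, given as the corolla effect minus the petal effect on the log2(FPKM + 1) scale with its SE. Over all 26460 genes 0.654% passed. The phenylalanine ammonia-lyase gene c93919.graph_c0 differed by 2.18 ± 0.32 (limma adjusted p = 0.0321), with the deeper fall in petal. Flavonol 4'-sulfotransferase c105089.graph_c1 differed by 2.17 ± 0.25 (limma adjusted p = 0.0136), at 27.8 ± 0.198 FPKM in corolla on day 7 against 6.52 ± 1.31 FPKM on day 1, and 37.2 ± 0.0283 against 44.1 ± 9.44 FPKM in petal. The isoflavone reductase-like gene c78614.graph_c0 differed by 3.02 ± 0.41 (limma adjusted p = 0.0249) and measured at most 0.56 FPKM in any petal library. Chalcone-flavonone isomerase 3 (c94522.graph_c0) differed by -1.53 ± 0.20 (limma adjusted p = 0.0199), with the deeper fall in corolla.

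SWEET1a (c101302.graph_c0) differed by 1.49 ± 0.22 (limma adjusted p = 0.0311), at 291 ± 63.9 FPKM in corolla on day 7 against 121 ± 1.03 FPKM on day 1, and 202 ± 12.5 against 239 ± 4.57 FPKM in petal. SWEET4 (c54457.graph_c0) differed by -5.10 ± 0.61 (limma adjusted p = 0.0153), SWEET13 (c96588.graph_c0) by -3.01 ± 0.35 (0.0132) and SWEET14 (c94280.graph_c0) by -2.72 ± 0.40 (0.0311), all 3 of them at or below 1.15 FPKM in every petal library. With all libraries kept, a pseudocount of 0.1 ended the calls of SWEET4 (limma adjusted p = 0.174), SWEET13 (0.304), SWEET14 (0.276) and c78614.graph_c0 (0.123). No filter on low FPKM ended that of c93919.graph_c0 (0.0509), and a filter at 5 FPKM that of SWEET14 (0.0899). Each of these 8 calls was also lost when at least 1 single library was left out. Their adjusted p-values ran up to 0.304 over the 14 alternatives.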

How the results depend on the processing

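With another pseudocount, other scaling or counts divided by depth, the Myb305 differences between days and tissues moved by less than their spread. Leaving out 1 of the 2 libraries of a group cannot move them further than that, so it is no check. No list member's call changed sign. Over the 9 lists, 58 members passed in corolla, 41 in petal and 8 in the tissue by day test. With each library left out in turn, these counts ran from 0 to 49, from 0 to 37 and from 0 to 7, where the lone library left in a group is assumed to vary like the other groups. With no filter on low FPKM the petal count was 19. With a pseudocount of 0.1 the tissue by day count was 4. Over all genes, calls numbered 2452 in corolla, 452 in petal and 99 for tissue by day with no filter (4820, 2384 and 173 as reported), 3921 in petal from the joint fit of 8 libraries, and 270 for tissue by day with median-of-ratios scaling. With the repeat number as a block, 53, 40 and 9 members passed. The deviations of same-numbered repeats correlated at -0.005 in corolla and 0.001 in petal across days, and at 0.139 on day 1 and 0.293 on day 7 across tissues (26460 genes), so within a tissue the libraries share only a number. Comparisons between tissues nevertheless treated the 8 libraries as independent. The repeat block is 1 term for both days, so it does not model a pairing of corolla with petal within a day. Median-of-ratios and TMM scaling shifted the median change of all genes by at most 0.056. The causes were not tested. Counts exist for called genes alone, so total depth is unknown.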
